A study of Mus musculus with 2 samples.

Results

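Espn and Baiap2l1 are 2 of the 32285 genes measured in mouse embryonic stem cells, and were picked by name because their transcripts were much scarcer after 10 further passages. Because that fall chose them, its size is a description and carries no test. The study pooled 9 lines of the inbred strain C3H/HeSn-Paf/J, 3 each of XX, XO and XY karyotype, and profiled single cells with 10x Genomics chemistry in 1 library at the first time point (time 1) and 1 library 10 passages later (time 2). All cells grew with serum and LIF on gelatin with irradiated embryonic fibroblasts as feeders, so both libraries also hold feeder cells. Each time point had 1 library, and cells of 1 library are not replicates. Differences between time points therefore have no replicate check, and every interval below is a 95% interval for counting error only.

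Espn encodes espin, a protein that cross-links actin filaments into the tight parallel bundles of microvilli and of hair cell stereocilia. Baiap2l1 encodes IRTKS, a relative of IRSp53. Its I-BAR domain binds membrane that curves outward over a protrusion, and its SH3 domain binds actin regulators such as Eps8. Both proteins occur in the brush border of epithelial cells, where actin bundles hold up the microvilli.

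In GRCm38, Espn (ENSMUSG00000028943) is a protein-coding gene on the minus strand of chr4:152120331-152152371, and Baiap2l1 (ENSMUSG00000038859) one on the minus strand of chr5:144264526-144358112. Neither lies on chromosome 1, 8 or 14, the chromosomes whose gains divide the cells below. The start regions are shown because the genes fell together in the cells as a whole but apart within one cluster. RefSeq lists 3 starts for Espn and 1 for Baiap2l1 in GRCm38.p6. Each sequence runs 5′ to 3′ along the gene, from 250 bases before the start to 50 after it, and capitals mark GC boxes (GGGCGG on either strand).

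Espn, start 1 (minus strand, chr4:152152340-152152639): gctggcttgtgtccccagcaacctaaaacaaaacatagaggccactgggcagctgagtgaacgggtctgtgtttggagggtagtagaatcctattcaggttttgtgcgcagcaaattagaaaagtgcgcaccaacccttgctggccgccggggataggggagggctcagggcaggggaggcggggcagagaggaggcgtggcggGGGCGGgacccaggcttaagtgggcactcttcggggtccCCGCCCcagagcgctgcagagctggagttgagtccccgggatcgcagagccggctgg

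Baiap2l1 (minus strand, chr5:144358063-144358362): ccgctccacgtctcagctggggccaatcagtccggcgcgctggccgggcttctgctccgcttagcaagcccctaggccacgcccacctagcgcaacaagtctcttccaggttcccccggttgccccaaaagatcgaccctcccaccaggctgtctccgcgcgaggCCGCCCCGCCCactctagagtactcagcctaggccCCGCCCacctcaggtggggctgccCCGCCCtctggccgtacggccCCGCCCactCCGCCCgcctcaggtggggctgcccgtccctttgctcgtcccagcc

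The Baiap2l1 start region held 6 GC boxes and 25 CpG sites, at 71.0% G or C. As many GC boxes stood in 1.35% of the 32851 RefSeq promoters of that length. The upstream Espn start held 2 GC boxes and 15 CpG sites at 62.7% G or C, and its other starts held 2 and 5 CpG sites with 0 and 1 GC box. Across all promoters the median was 7 CpG sites and 0 GC boxes, and 35.7% held at least 1 GC box. No start of either gene held the E-box CACGTG, which stood in 7.15% of promoters, or the octamer ATGCAAAT, which stood in 1.74%. CCAAT, found in 37.4%, stood at the Baiap2l1 start and at the second Espn start.

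After filtering, 23226 cells of time 1 and 25480 of time 2 were kept, with medians of 43561.5 and 50314 UMIs. A UMI is 1 counted transcript molecule. The cells formed 15 clusters, named by their leading gene, from variable genes that did not include Espn or Baiap2l1. Of these, 4 were taken as pluripotent stem cell-like (Rhox9-led, Jam2-led, Nanos3-led and 1700097N02Rik-led), with 9168 cells at time 1 and 19785 at time 2. Like these 4, the Spry2-led cluster had no marker of another cell type among its leading genes. It had 6130 cells at time 1 and 17 at time 2, and was left out for its median of 27847 UMIs. All 12 pluripotency markers, among them Pou5f1, Sox2 and Nanog, were detected in every cluster, so their detection alone names no cluster. The libraries filled the clusters unequally: 7792 Rhox9-led cells came from time 1 and 706 from time 2, whereas for the 1700097N02Rik-led cluster these numbers were 47 and 9916. A cluster drawn mostly from 1 library may be that library and not a cell state. The libraries shared 192 barcodes among the filtered cells.

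Transcripts can be carried between drops as free RNA, and the fibroblast-like cluster was used as a reference for it. Its cells held the 12 pluripotency markers at a median of 28.1% of the level over all cells at time 1 (range 23.5 to 239%) and 27.7% at time 2 (22.7 to 151%). Klf4 was at the top of both ranges (122 against 51.2 CPM over all cells at time 1), followed by Tbx3 at 126% and 57.6%. Fibroblasts are known to express Klf4, so its value is no measure of carried RNA. The 10 markers besides these 2, which were set apart after their values were seen, ranged from 23.5 to 42.0% and from 22.7 to 34.1%. Espn stood at 24.1 CPM (counts per 1000000 UMIs) in fibroblast-like cells of time 1 and at 8.72 CPM at time 2. Baiap2l1 stood at 19.2 and 8.96 CPM there. Against all cells these were 35.1% and 38.6% at time 1, but 60.8% for Espn and 106% for Baiap2l1 at time 2, above the 10 markers. The 1700097N02Rik-led cells of time 2 held less of both genes than fibroblast-like cells, so the fibroblast-like level is a point of reference and not the floor that free RNA sets. No order is read among levels below it. Whether the fibroblasts express the members themselves and how far free RNA sets the members' levels in the other clusters were not tested.

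Across the pluripotent stem cell-like cells, time 1 showed Espn at 82.7 CPM (81.9 to 83.5) and time 2 at 14.1 CPM (13.9 to 14.3). Baiap2l1 was at 56.7 CPM (56.0 to 57.3) and 7.75 CPM (7.59 to 7.92). On the log2 scale of CPM plus 1, Espn fell by 2.47 (interval -2.49 to -2.44), a 5.53-fold lower level, and Baiap2l1 fell by 2.72 (interval -2.75 to -2.69), a 6.59-fold lower level. With cells thinned to 10000 UMIs each, the share with at least 1 UMI went from 50.4% to 12.6% for Espn and from 34.0% to 6.03% for Baiap2l1. With all UMIs counted the shares fell by 49.0 and 44.8 percentage points.

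Both genes were at least 2-fold lower at time 2, as were 2.78% of 7331 genes tested, those reaching 10 CPM in at least 1 library. This contrast chose the members, so nothing is read from that count. Ordered from the lowest log2 ratio, Baiap2l1 was number 3 and Espn number 5 of the 2825 genes with at least 50 CPM. Baiap2l1 at time 2 was no higher than in fibroblast-like cells (7.75 against 8.96 CPM), while Espn remained above them (14.1 against 8.72 CPM). Scaling by TMM in place of total UMIs shifted log2 ratios by 0.14, to -2.33 for Espn and -2.59 for Baiap2l1.

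The genes parted within the Rhox9-led cluster. Espn there went from 94.3 CPM (93.3 to 95.2) to 83.1 CPM (80.0 to 86.4), a log2 ratio of -0.18 (-0.24 to -0.12). Baiap2l1 in the same cells was at 57.1 CPM (56.4 to 57.8) and 24.3 CPM (22.6 to 26.1), a log2 ratio of -1.20 (-1.30 to -1.09). Baiap2l1, but not Espn, was thus among the genes at least 2-fold lower in that cluster, which were 0.151% of the 7306 genes tested there (0.164% were 2-fold higher). From the lowest ratio, Baiap2l1 was number 6 and Espn number 1138. Rhox9-led cells were 85.0% of the time 1 cells in the contrast that chose the members, so this count and these ranks are descriptions. Espn was also 1 of the 10 genes that led the Rhox9-led cluster. Leading genes were ranked over both libraries pooled, and 7792 cells of this cluster came from time 1 and 706 from time 2. A gene chosen for its fall is favoured by that make-up, so nothing is read from its place.

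**Figure D1:**
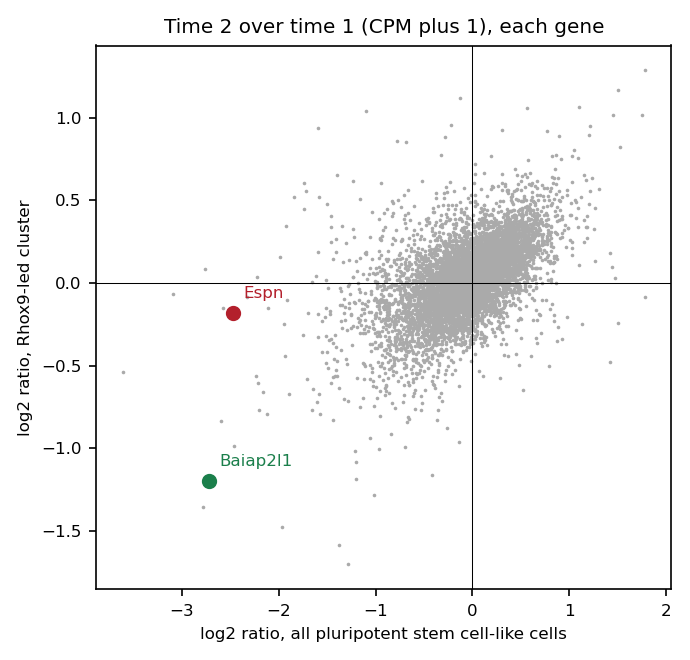
Each point is 1 gene with at least 10 CPM, placed by its log2 ratio of time 2 over time 1 (CPM plus 1) in all pluripotent stem cell-like cells (horizontal axis) and in the Rhox9-led cluster alone (vertical axis). Espn lies far to the left but near 0 on the vertical axis (-2.47 and -0.18), and Baiap2l1 lies low on both (-2.72 and -1.20).

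The other pluripotent stem cell-like clusters held less Espn at either time. The Jam2-led cluster, led also by the naive factors Tbx3 and Klf4, had 26.0 CPM of Espn at time 1 and 9.43 CPM at time 2, which were 1.87 and 0.71 CPM above fibroblast-like cells. Its Baiap2l1 was at 58.7 CPM (57.0 to 60.5) and 23.2 CPM (22.4 to 24.1), close to the Rhox9-led values at each time. Jam2-led cells thus carried Baiap2l1 with an Espn level close to that of fibroblast-like cells.

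The Nanos3-led cluster showed the reverse at time 2. Espn was at 47.8 CPM in its 140 cells of time 1 and 24.8 CPM (24.3 to 25.3) in its 7067 cells of time 2. Baiap2l1 was at 28.4 and 6.70 CPM, the latter below the 8.96 CPM of fibroblast-like cells.

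In the 1700097N02Rik-led cluster, where 9916 cells of time 2 lay, both genes were under the fibroblast-like level. Espn was at 4.73 CPM (4.56 to 4.91) and Baiap2l1 at 4.17 CPM, with a UMI in 4.80% and 3.48% of thinned cells against 6.78% of fibroblast-like cells for either gene. Median depths of these clusters over both libraries were 51734 and 47456 UMIs. The 47 cells of time 1 in that cluster had 13.2 CPM of Espn and 24.2 CPM of Baiap2l1.

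**Figure D2:**
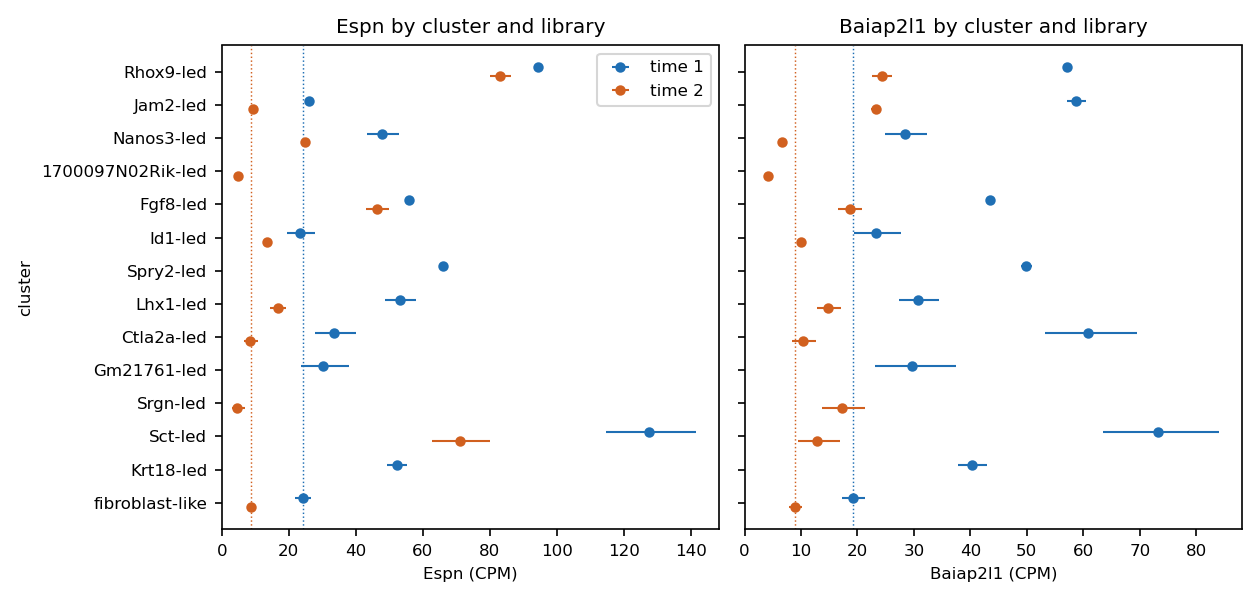
Espn (left) and Baiap2l1 (right) in CPM on the horizontal axis for each cluster with at least 50 cells, at time 1 (blue) and time 2 (orange); bars are exact Poisson 95% intervals and dotted lines mark fibroblast-like cells. Espn stayed high in the Rhox9-led cluster (94.3 and 83.1 CPM), while Baiap2l1 was lower at time 2 in each cluster with 2 values.

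The clusters' sizes moved together with these levels. At time 1, the Rhox9-led cluster held 85.0% of the pluripotent stem cell-like cells and gave 94.2% of their Espn UMIs and 83.2% of their Baiap2l1 UMIs. At time 2 it held 3.57% of cells and gave 16.1% and 8.56%. Nanos3-led cells, 35.7% of the cells at time 2, then gave 58.7% of Espn UMIs, and Jam2-led cells, 10.6% of the cells, gave 34.4% of Baiap2l1 UMIs. The 6130 Spry2-led cells of time 1, at 66.0 CPM of Espn and 49.9 CPM of Baiap2l1, are not in these shares.

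Weighting the Rhox9-led, Jam2-led and Nanos3-led clusters of both libraries by their time 1 sizes gave Espn levels of 84.6 and 72.6 CPM, a log2 ratio of -0.22 (-0.27 to -0.16). The same weights gave Baiap2l1 levels of 56.9 and 23.9 CPM, a log2 ratio of -1.22 (-1.31 to -1.13). These weights rest mostly on the Rhox9-led cluster, where Espn kept most of its level. In Jam2-led and Nanos3-led cells Espn was 2.58-fold and 1.89-fold lower at time 2, but in Jam2-led cells it lay close to the fibroblast-like level, which was itself 2.58-fold lower. With the time 2 sizes of the same 3 clusters as weights, Espn went from 46.5 to 25.7 CPM, a log2 ratio of -0.83. Baiap2l1 went from 36.9 to 11.5 CPM, a log2 ratio of -1.60. The 1700097N02Rik-led cluster had too few cells at time 1 to enter. It held 50.1% of the time 2 cells, so these weights do not stand for all of time 2. With the fibroblast-like level subtracted, the Espn ratio at time 1 sizes turned to 0.08.

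Outside the pluripotent stem cell-like clusters the same parting was seen in the Fgf8-led cluster, which is primed epiblast-like by its leading genes Fgf8, Pou3f1 and Fgf5. Espn there was at 55.7 CPM at time 1 and 46.4 CPM at time 2, and Baiap2l1 at 43.4 and 18.6 CPM. Espn reached its highest level in the Sct-led cluster at time 1 (127 CPM in 58 cells), which is led also by Hand1 and the keratins Krt7, Krt8 and Krt18. In 72 such cells of time 2, Espn was at 71.0 CPM and Baiap2l1 had gone from 73.3 to 12.8 CPM. The Id1-led cluster, with 4228 cells at time 2, had 13.4 CPM of Espn and 10.1 CPM of Baiap2l1.

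In order of level at time 1 among clusters with at least 50 cells, Espn ran from the Sct-led over the Rhox9-led (94.3 CPM) and Spry2-led (66.0 CPM) clusters to the Fgf8-led, Lhx1-led and Krt18-led clusters (55.7, 53.2 and 52.2 CPM), whose intervals overlapped. The 70 Krt18-led barcodes had a median of 352473.5 UMIs, far above every other cluster, so their level is not read as that of a cell type. Among these clusters of at least 50 cells, the Jam2-led, fibroblast-like and Id1-led clusters were lowest, at 26.0, 24.1 and 23.3 CPM, also with overlapping intervals. At time 2 the order was Rhox9-led (83.1 CPM), Sct-led (71.0), Fgf8-led (46.4), Nanos3-led (24.8), Lhx1-led (16.7) and Id1-led (13.4). The Jam2-led, fibroblast-like and Ctla2a-led clusters, at 9.43, 8.72 and 8.55 CPM, did not differ beyond counting error.

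Baiap2l1 had a flatter order. At time 1, the Sct-led (73.3 CPM), Ctla2a-led (60.9), Jam2-led (58.7) and Rhox9-led (57.1) clusters had overlapping intervals from each to the next. The Spry2-led, Fgf8-led and Krt18-led clusters followed at 49.9, 43.4 and 40.3 CPM, and the fibroblast-like cluster was lowest at 19.2. At time 2, among clusters with at least 50 cells, the Rhox9-led and Jam2-led clusters were highest with overlapping intervals. The Nanos3-led and 1700097N02Rik-led clusters lay below the fibroblast-like level, where no order is read. In 9 clusters with at least 50 cells at both times, Baiap2l1 was between 2.01-fold (Lhx1-led) and 5.45-fold (Ctla2a-led) lower at time 2, and Espn between 1.13-fold (Rhox9-led) and 3.61-fold (Ctla2a-led). Fibroblast-like cells were within these ranges, with Baiap2l1 2.03-fold and Espn 2.58-fold lower.

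Cells were also divided by sex chromosome dosage. Y-positive cells had at least 2 UMIs from the Y chromosome. Cells with no Y UMI were X-high when X-linked genes stood at 1.2 times the median of Y-positive cells or above, and X-low otherwise. Cells with 1 Y UMI, 649 of 9168 at time 1 and 1149 of 19785 at time 2, were put in none of these classes. The lines of single cells were not known here: X-low cells can be XO, XX with 1 X silent or lost, or XY with no Y UMI caught.

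Both genes were highest in X-high cells. At time 1 Espn was at 95.0 CPM in X-high, 64.9 in X-low and 59.3 in Y-positive cells, and at time 2 at 21.5, 12.3 and 14.8 CPM. Baiap2l1 was at 68.8, 35.9 and 43.6 CPM at time 1, and at 21.3, 4.97 and 6.37 CPM at time 2. In log2, X-high stood over X-low by 0.92 (0.87 to 0.96) at time 1 and 1.90 (1.84 to 1.97) at time 2 for Baiap2l1, and by 0.54 and 0.75 for Espn. X-low and Y-positive cells of time 2 held less Baiap2l1 than fibroblast-like cells did.

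The X-high excess of Baiap2l1 was seen within the Rhox9-led cluster and among cells with no gained autosome. In Rhox9-led cells it was 72.0 against 36.8 CPM at time 1 and 31.7 against 11.3 CPM at time 2. Among cells with no gain it was 69.3 against 42.3 CPM and 23.0 against 10.3 CPM. Nanos3-led and 1700097N02Rik-led cells of time 2 also had it, at 10.8 against 6.31 CPM and 11.99 against 3.91 CPM, the lower values being under the fibroblast-like level. In the Jam2-led cluster it was 58.3 CPM (56.5 to 60.1) against 38.7 CPM (29.5 to 49.8) in 31 X-low cells at time 1, but at time 2 no excess beyond counting error was seen: 1941 X-high cells had 23.3 CPM and 74 X-low cells 21.9 CPM, a log2 ratio of 0.088 (-0.24 to 0.41). Espn at time 2 was higher in X-high than in X-low cells in the Rhox9-led and Nanos3-led clusters, by log2 ratios of 0.28 (0.15 to 0.41) and 0.63 (0.54 to 0.72). In the Jam2-led cluster it was at 9.39 CPM (8.86 to 9.95) in X-high cells and 5.33 CPM (3.21 to 8.32) in X-low cells. These lay at and under the 8.72 CPM (7.70 to 9.85) of fibroblast-like cells, so no order is read. In 1700097N02Rik-led cells both levels (8.07 and 4.52 CPM) were under that of fibroblast-like cells, and no order is read. Over all cells with no gain, Espn at time 2 was lower in X-high cells (20.1 CPM) than in X-low cells (23.6 CPM). Of X-high cells at time 2, with or without a gain, 1941 of 2959 lay in the Jam2-led cluster, which had little Espn. Whether the mix of clusters bears on the order among cells with no gain was not tested.

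Gains of whole chromosomes were called from each chromosome's share of a cell's autosomal UMIs, as at least 1.3 times the median at time 1, with the members' own UMIs left out. At time 1, 7821 of 9168 pluripotent stem cell-like cells had no gain, 728 a gain of chromosome 8 alone and 125 of chromosome 1 alone. At time 2, 3908 of 19785 had none, and the largest gained classes were 1 alone (3695 cells), 1 with 8 (3627), 8 alone (3136), 1 with 14 (2329) and all 3 (1412).

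Baiap2l1 was already low in cells with a chromosome 8 gain at time 1. It was at 60.4 CPM (59.7 to 61.2) with no gain, 27.6 CPM (23.9 to 31.7) with a gain of 1, and 15.9 CPM (14.7 to 17.2) with a gain of 8, below the 19.2 CPM of fibroblast-like cells. The gain 8 deficit was as large within the Rhox9-led cluster (15.7 against 61.1 CPM) and stood also within X-low cells (14.4 against 42.3 CPM).

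At time 2, Baiap2l1 was at 18.5 CPM (17.9 to 19.0) in cells with no gain and at or below 5.61 CPM in each class with gains of 1, 8 or 14. It was at 5.61 CPM with 1 alone, 5.37 with 8 alone, 3.38 with 1 and 14, 2.75 with all 3 and 2.71 with 1 and 8. All were under the 8.96 CPM of fibroblast-like cells, so no order is read among them. Among X-low cells the gap was smaller, at 10.3 CPM with no gain, 5.25 with 1 alone and 5.14 with 8 alone. Of the 3908 cells with no gain 1904 were Jam2-led, where Baiap2l1 was at 22.9 CPM. The cells with no gain had fallen by 1.66 on the log2 scale since time 1, and in the Rhox9-led cluster went from 61.1 to 30.4 CPM.

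**Figure D3:**
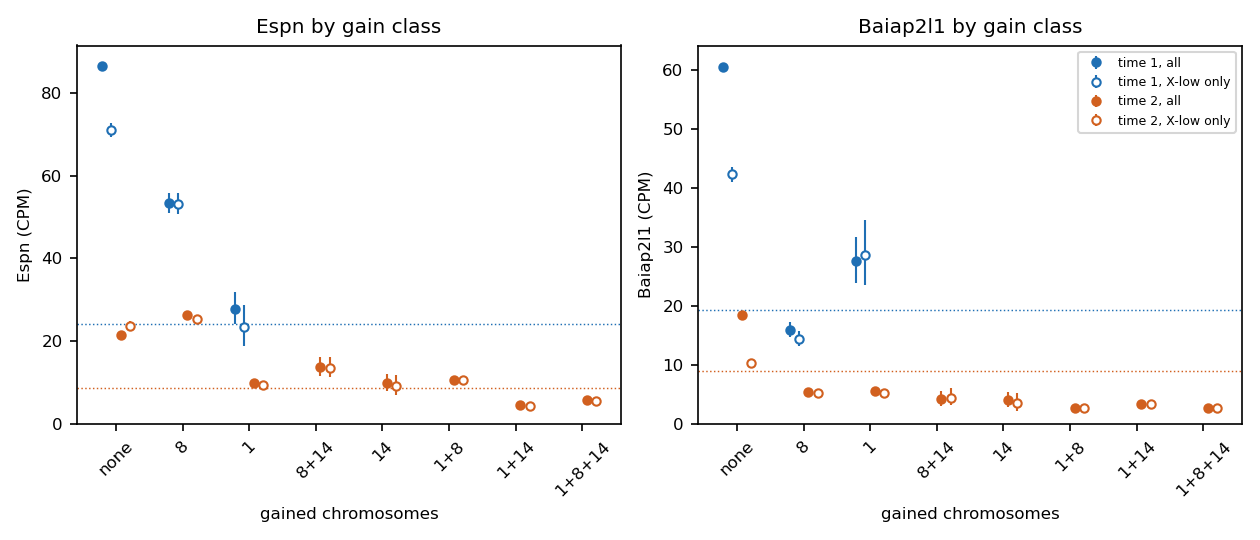
Espn (left) and Baiap2l1 (right) in CPM on the vertical axis by the chromosomes a cell had gained, for all pluripotent stem cell-like cells (filled) and X-low cells alone (open), at time 1 (blue) and time 2 (orange); bars are exact Poisson 95% intervals and dotted lines mark fibroblast-like cells. Over all cells of time 2, gain 8 cells had more Espn than cells with no gain (26.4 against 21.4 CPM). They had less in the Rhox9-led cluster (67.9 against 91.4 CPM) and no excess beyond counting error in the Nanos3-led cluster (34.9 against 33.8 CPM). Their Baiap2l1 was lower (5.37 against 18.5 CPM, and 5.14 against 10.3 CPM in X-low cells).

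Espn was ordered otherwise by gain. At time 1 it was at 86.4 CPM with no gain, 53.4 with a gain of 8 and 27.8 with a gain of 1. At time 2 it was at 26.4 CPM (25.6 to 27.2) with a gain of 8 alone, 21.4 with none, 10.7 with 1 and 8, 9.78 with 1 alone, 5.82 with all 3 and 4.46 (4.11 to 4.83) with 1 and 14. The last 2 lie under the 8.72 CPM of fibroblast-like cells, so no order is read between them. Cells with a gain of 1 alone had less Espn than cells with no gain or with a gain of 8 alone at both times, and at time 2 so had the listed classes with 1 and other gains. At time 1 those classes held too few cells for a level. Of the 3908 cells with no gain at time 2, 1904 were Jam2-led, with Espn at 9.31 CPM.

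The low Espn of gain 1 cells was seen inside some clusters. In Nanos3-led cells of time 2 it was at 33.8 CPM with no gain, 34.9 with 8 alone, 18.5 with 1 alone and 18.6 with 1 and 8. In 82 Rhox9-led cells of time 1 with a gain of 1 it was at 31.7 CPM, against 99.3 CPM with no gain. At time 2 that gap was not seen in the Rhox9-led cluster: its 36 cells with a gain of 1 had 82.1 CPM (67.6 to 98.7), against 91.4 CPM (87.3 to 95.6) with no gain. Gain 8 in Nanos3-led cells differed from no gain by less than counting error for Espn (log2 ratio 0.04, -0.04 to 0.13), while Baiap2l1 was at 5.03 against 12.1 CPM. Gained classes and clusters were not spread alike: a gain of 8 alone was called in 8.66% and 21.5% of Rhox9-led cells at time 1 and time 2, and in 27.9% and 28.1% of Nanos3-led cells. The 1700097N02Rik-led cluster, at 4.73 CPM of Espn, held 2277 of the 3695 cells of time 2 with a gain of 1 alone. It held 1995 of the 2329 with 1 and 14, but 695 of the 3908 with no gain. How far this mix sets the Espn order by gain over all cells was not tested.

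Whether the fall was graded or on/off was read from counts in cells thinned to 10000 UMIs. In a graded fall each cell keeps the same smaller share of its transcripts, and in an on/off fall a share of cells keeps its full level and the rest go to 0. From the time 1 counts and the ratio of the means, each gives a share of cells with a UMI at time 2. A position of 0 means the graded share and 1 the on/off share. Its interval covers only the number of time 2 cells with a UMI. The ratio of the means, taken from the same cells, is held fixed, and its own error is left out.

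Over all pluripotent stem cell-like cells, the observed shares of both genes lay between. For Espn the graded share was 14.3%, the on/off share 9.33% and the observed 12.6%, a position of 0.35 (0.25 to 0.44). For Baiap2l1 they were 7.27%, 4.67% and 6.03%, a position of 0.48 (0.35 to 0.60). Its observed share and its 7.75 CPM at time 2 were no higher than in fibroblast-like cells (6.78% and 8.96 CPM). The part of free RNA was not tested, so nothing is read from this Baiap2l1 position. Cells with 3 or more Espn UMIs were 9.27% at time 1 and 0.758% at time 2, against 0.174% for a graded and 1.72% for an on/off fall. Since the clusters differ in level and size, this mixture holds differences between clusters as well as within them.

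Within the Rhox9-led cluster, Baiap2l1 was near the on/off share. It was detected in 33.7% of thinned cells at time 1 and 14.6% (12.1 to 17.4) at time 2, against 18.8% for a graded and 14.1% for an on/off fall, a position of 0.90 (0.30 to 1.44). The positive cells held a mean of 1.72 UMIs at time 1 and 1.67 at time 2, where a graded fall would give 1.29. At this depth fewer thinned cells had a UMI, and those that had one held about as many as before. With cells thinned to 18000 UMIs, 18.0% at time 1 and 9.77% at time 2 had 1 UMI. At 2 UMIs the shares were 10.8% and 6.09%, at 3 UMIs 7.30% and 2.41%, and at 4 UMIs 4.48% and 1.56%. Shares with 3 or 4 UMIs thus fell more steeply, while an on/off fall lowers each alike. No position was computed for this cluster at that depth, so Baiap2l1 is not placed as graded or on/off there. Fibroblast-like cells were positive for Baiap2l1 in 20.4% (time 1) and 6.78% (time 2), and the part of free RNA in the position was not tested. Cells with no gain alone gave a position of 1.09 (0.27 to 1.82), and X-high cells of the cluster 0.90 (0.17 to 1.55).

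In the Jam2-led cluster Baiap2l1 lay between the patterns, at 0.53 (0.14 to 0.90), with 17.7% of cells positive against 15.6% for an on/off fall. Positive cells there held a mean of 1.54 UMIs at time 1 and 1.36 at time 2. Espn in the Rhox9-led cluster fell too little to be placed (0.27, -1.30 to 1.85), and its Jam2-led interval also spanned both patterns (-0.82 to 1.01). In Nanos3-led cells, of which time 1 had 140, the Espn position was 1.12 (0.71 to 1.51). That interval leaves out the counting of the 140 cells of time 1. With Nanos3-led cells thinned to 18000 UMIs, 31.4% at time 1 and 21.6% at time 2 had 1 Espn UMI. At 2 UMIs the shares were 16.4% and 7.24%, and at 3 UMIs 5% (7 cells) and 2.42%. Shares with 2 or 3 UMIs thus fell more steeply, while an on/off fall lowers each alike. No position was computed for this cluster at that depth, so Espn is not placed there. The Baiap2l1 position in Nanos3-led cells was 0.36 (0.08 to 0.61). It was 0.86 (0.24 to 1.42) in the X-low cells among them and 0.54 (-0.09 to 1.09) in those with no gain. Baiap2l1 is therefore not placed there either.

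**Figure D4:**
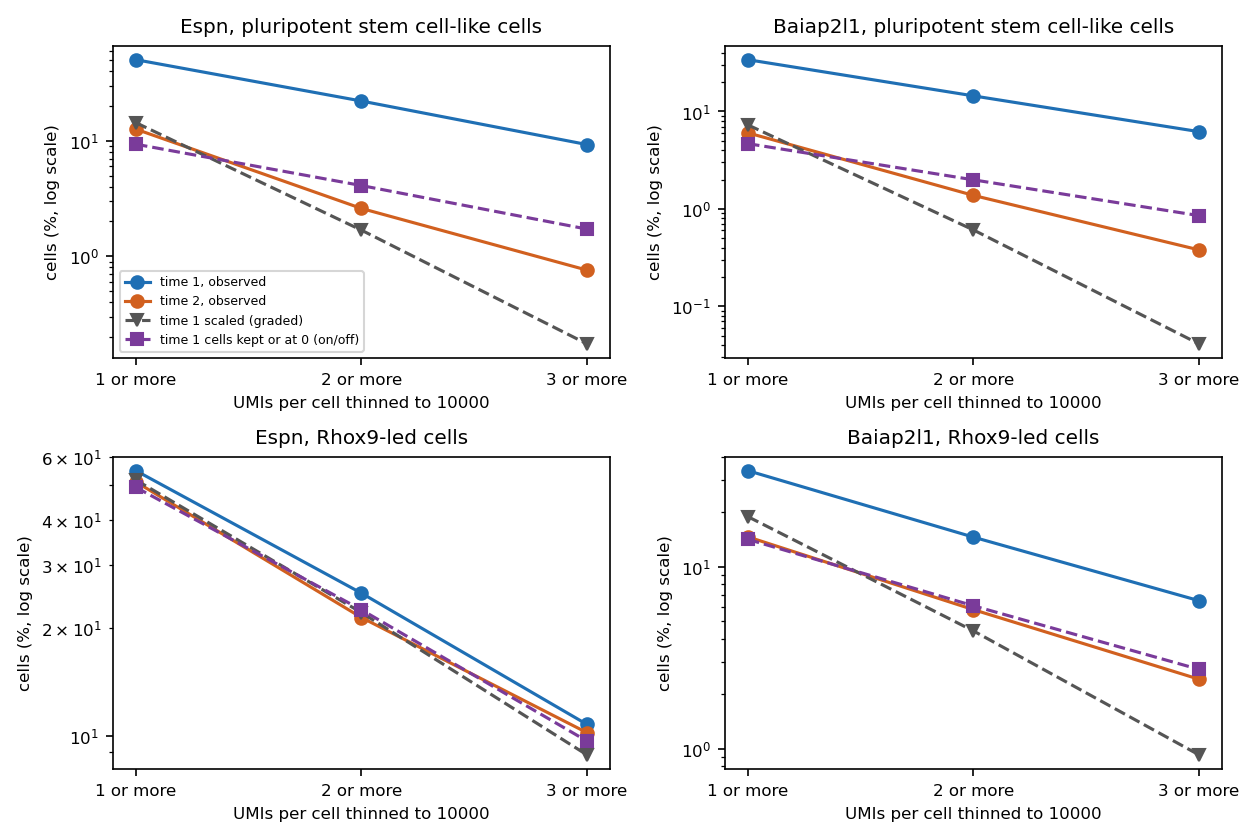
Percent of cells (vertical, log scale) with at least 1, 2 or 3 UMIs of Espn (left) or Baiap2l1 (right) after thinning to 10000 UMIs, in all pluripotent stem cell-like cells (top) and Rhox9-led cells (bottom); circles are observed, dashed lines are what a graded or an on/off fall from time 1 would give. At this depth the Baiap2l1 counts of time 2 in Rhox9-led cells lie near the on/off line (14.6% observed, 14.1% on/off, 18.8% graded).

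Baiap2l1 was uneven between cells before it fell. In Rhox9-led cells of time 1 the variance of its thinned counts was 1.75 times the mean, and it was detected in 33.7% of cells where a Poisson spread of the same mean gives 44.1%. At time 2 the ratio was 2.07. Espn had a variance 1.46 times its mean at time 1 and 1.45 times at time 2. In Spry2-led cells of time 1 the detected share of Baiap2l1 was nearer to its Poisson value, 36.4% against 39.0%.

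The transcripts were found together in cells slightly more often than the product of their shares in some groups and not in others. In Rhox9-led cells, 19.6% had both at time 1 where the product of their shares is 18.5%, and 6.80% had both against 7.46% at time 2. In Jam2-led cells the odds ratios were 0.99 and 1.02, and in Nanos3-led cells of time 2 the odds ratio was 1.27. Over all pluripotent stem cell-like cells they were 1.14 and 1.37, with 1636 and 193 cells holding both. Nothing more is read from such weak relations in sparse counts.

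The genes' own chromosomes moved little. The median ratio of chromosome 4, which carries Espn, went from 1.00 to 0.963, and chromosome 5, which carries Baiap2l1, from 1.00 to 0.989. A called drop of chromosome 4 was seen in 0.393% and 0.268% of cells, and of chromosome 5 in 0.240% and 0.182%. The shares of positive cells went from 50.4% to 12.6% and from 34.0% to 6.03%. The chromosome ratios are taken over all autosomes, the gained ones included, and cannot show the loss of a part of a chromosome. Whether the copy number of either gene changed was not tested.

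Of the 19 other genes that start within 250 kb of the main Espn start, 8 had at least 10 CPM, and 2 of these were at least 2-fold lower at time 2, where 2.78% of all genes tested were, with a median log2 ratio of -0.59 against -0.03 for all genes tested. They were Klhl21, an adaptor of the Cul3 ubiquitin ligase (36.8 to 12.8 CPM), and Plekhg5 (20.2 to 8.47 CPM). In Rhox9-led cells Plekhg5 was at 22.2 and 24.8 CPM and Klhl21 at 40.8 and 26.5 CPM. Acot7, an acyl-CoA thioesterase whose start is 25.8 kb from that of Espn, was at 45.4 and 41.1 CPM, and the ribosomal protein gene Rpl22 at 2771 and 2361 CPM.

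Near Baiap2l1, 1 of 7 genes had at least 10 CPM. Bri3, on the opposite strand, overlaps it and was at 234 and 158 CPM, a log2 ratio of -0.56. In Rhox9-led cells the Bri3 ratio was -0.12, where that of Baiap2l1 was -1.20. Whether the counting used strand is not given in the sources used here, so reads from the overlap cannot be assigned with certainty.

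**Figure D5:**
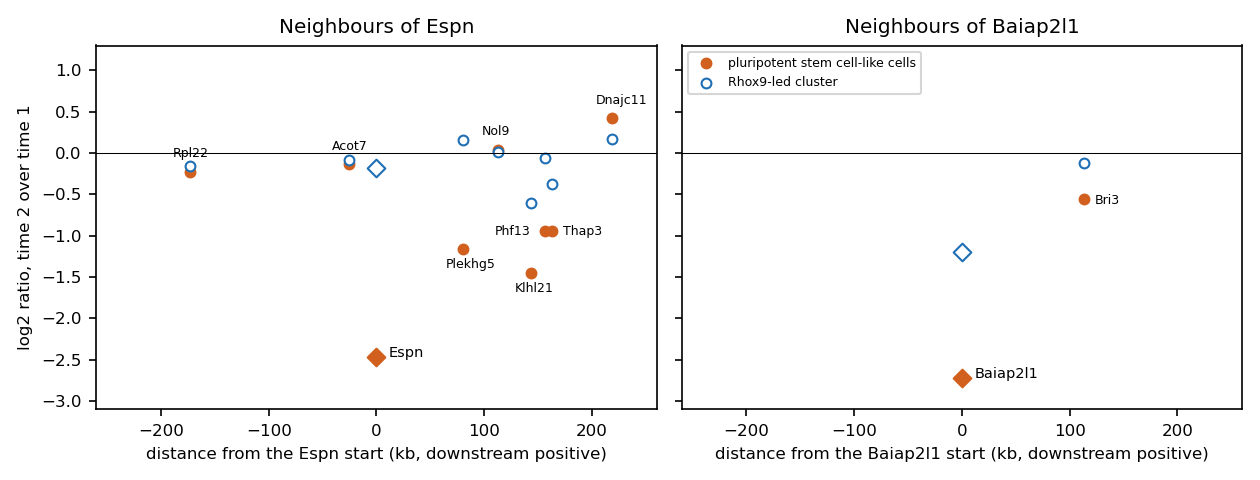
Log2 ratio of time 2 over time 1 (vertical) for genes with at least 10 CPM that start within 250 kb of Espn (left) or Baiap2l1 (right), by distance in kb (horizontal); diamonds are the members, filled marks all pluripotent stem cell-like cells and open marks the Rhox9-led cluster. Espn (-2.47) lies below all 8 neighbours, of which Klhl21 is the lowest (-1.46).

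Of the other genes of actin bundles and their caps, 8 had at least 10 CPM, and 1 was at least 2-fold lower, where 2.78% of all genes tested were. This was Eps8l2, a relative of the bundle cap Eps8, at 21.2 and 6.38 CPM. Like Espn it was kept in Rhox9-led cells, at 24.1 and 35.1 CPM. The list's median log2 ratio was -0.20. The most abundant bundlers, Actn4 (174 and 179 CPM), Actn1 (89.4 and 90.0) and Fscn1 (87.3 and 97.0), were nearly level, and the capping subunit Capzb was at 195 and 153 CPM.

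In the I-BAR family, Mtss1 alone of the others had at least 10 CPM, at 39.7 and 33.7 CPM. Baiap2, which encodes IRSp53, was at 7.65 and 7.72 CPM. Among 15 I-BAR partners and actin nucleators, none was 2-fold lower and 1 was 2-fold higher, where 1.06% of all genes tested were. It was Cobl, an actin nucleator of microvilli, at 8.67 and 26.8 CPM, which is also a leading gene of the 1700097N02Rik-led cluster and was at 5.72 and 4.83 CPM in Rhox9-led cells. Cdc42, the small GTPase that directs filopodia, was at 271 and 231 CPM, Rac1 at 155 and 144, Enah at 142 and 244, and Wasf2 at 93.8 and 81.9 CPM. The median log2 ratio of the partners was -0.11.

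Of the microvillus and stereocilium genes, 4 of 15 had at least 10 CPM and 0 passed 2-fold either way, where 2.78% of all genes tested were 2-fold lower and 1.06% higher, so nothing is read from so few genes. These were the membrane linkers Rdx (167 and 191 CPM), Ezr (157 and 144) and Msn (34.5 and 30.5) and the scaffold Slc9a3r1 (75.0 and 60.2). Their median log2 ratio was -0.15.

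Over 23 points, each a cluster in a library, the genes most like Espn were the tight junction gene Cldn4 (Pearson r 0.87), Fxyd6, a regulator of the sodium pump (0.83), Aldh7a1 (0.79), Gstm1 (0.78) and Crip1 (0.78). Cldn4 was at 81.8 and 26.0 CPM in all pluripotent stem cell-like cells and at 91.4 and 94.1 CPM in the Rhox9-led cluster. The genes most like Baiap2l1 were Pgk1 (0.84) and Aldoa (0.82), enzymes of glycolysis, Bnip3, a mitophagy receptor (0.83), Med30, a Mediator subunit (0.81), and Ipp, an actin-binding kelch protein (0.79). Bnip3 was at 284 and 61.0 CPM, and at 306 and 179 CPM in Rhox9-led cells. Espn and Baiap2l1 had an r of 0.68 with each other. The points share their libraries, and these values are descriptions over 2 libraries.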

How the data were processed

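Single cells were captured with 10x Genomics version 3.1 chemistry, per the labels. The values the authors deposited are whole UMI counts for each gene in 145288 and 52242 barcodes (1735810403 and 1843588321 UMIs at time 1 and time 2). Per the submitters' processing notes, bcl2fastq 2.20.0.422 and Cell Ranger 6.1.2 were used with mm10 or GRCm38 as the build. The deposited counts were not normalised.

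Cells were barcodes with at least 18315 (time 1) or 18646 (time 2) UMIs, 0.1 times the 99th percentile of the 20000 largest barcodes, 1000 genes or more and no more than 10% of UMIs from mitochondrial genes. Scrublet's automatic threshold marked 2.14% and 0.294% of cells, so the 10% of cells with the highest scores were removed in its place (2510 and 2769). Clustering (scanpy 1.11.5, igraph 0.11.9) used 2000 variable genes without the members, 30 principal components, 15 neighbours and resolution 0.5. The Spry2-led cluster met the marker rule of pluripotent clusters but was left out for its median of 27847 UMIs. Marker genes were fixed as lists, and how they name a cluster was decided with the clusters in view.

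CPM is a gene's summed UMIs per 1000000 UMIs of the cells summed, with exact Poisson intervals. Shares are of cells thinned to 10000 UMIs, with exact binomial (Clopper-Pearson) intervals. Log2 ratios have 1 CPM added. Ratios of chromosomes rested on 11227 autosomal genes and 399 on the X. Coordinates come from GENCODE M21 (GRCm38), which held 32235 of the 32285 identifiers, and start regions from RefSeq GRCm38.p6. TMM factors came from edgeR 4.0.16. The scripts were tested on simulated graded, on/off and mixed falls.

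No test compares the time points, since each had 1 library. The members, the gene lists and the classes of cells were chosen with earlier results of these data known. Named genes were the members, the 5 genes most like each by Pearson r among those with at least 50 CPM, and, of each list and of the neighbours, those past 2-fold and up to 4 with the highest CPM. Baiap2, Acot7 and the leading genes of clusters were named after their values were seen.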

Additional observations from a re-analysis of the deposited data

Results flagged for a closer look

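Espn moved in opposite directions in several pairs of groups, and in no case was the difference between the directions tested, since each time point had 1 library. In Rhox9-led cells its log2 ratio of time 2 over time 1 was 0.15 in X-low cells (67.0 and 74.5 CPM), while X-high cells of that cluster went from 117 to 90.7 CPM. In Rhox9-led cells with a gain of chromosome 8 the ratio was 0.32 (54.1 and 67.9 CPM), against -0.12 in those with no gain.

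Gain 8 cells had less Espn than cells with no gain at time 1 (log2 ratio -0.69) and more at time 2 (0.29). Among X-low cells these ratios were -0.41 (-0.48 to -0.34) and 0.0935 (0.007 to 0.18), the latter barely above 0 by counting error alone. Within Rhox9-led cells gain 8 was lower at both times, by log2 ratios of -0.86 and -0.42, and in Nanos3-led cells of time 2 the ratio was 0.04. Of the gain 8 cells 675 of 728 were Rhox9-led at time 1 and 152 of 3136 at time 2.

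Y-positive cells had less Espn than X-low cells at time 1 (log2 ratio -0.13) and more at time 2 (0.25). Among cells with no gain the ratios were -0.18 and -0.14 (-0.33 to 0.05), with no reversal. Within the Rhox9-led cluster the ratios were -0.11 and -0.37, while in the Nanos3-led cluster of time 2 the ratio was 0.20. In 1700097N02Rik-led cells both levels were under that of fibroblast-like cells, and no order is read. Among cells with no gain, X-high cells had more Espn than X-low cells at time 1 (0.41) and less at time 2 (-0.22). At time 2, over cells with or without a gain, X-high cells had more Espn inside the Rhox9-led and Nanos3-led clusters, by log2 ratios of 0.28 and 0.63. In the Jam2-led cluster the levels lay at and under that of fibroblast-like cells, and no order is read there either.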

How the results depend on the processing

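No paired analysis was possible because each time point had 1 library. Of 89 alternatives to 18 results, 29 stayed within the counting interval, 58 left it in the same direction and 2 reversed. Among the 29, dropping the minimum CPM for the members' ranks could not move either log2 ratio, since that minimum does not enter it. Of the alternatives, 11 were chosen after seeing the data, namely subtracting the fibroblast-like level, splitting clusters by X class and taking gain contrasts inside 1 cluster. Where a value moved, the cause was not tested.

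The log2 ratios of time 2 over time 1 (-2.47 for Espn, -2.72 for Baiap2l1) became -2.33 for Espn and -2.59 for Baiap2l1 with TMM factors, -2.54 and -2.85 with 0.1 CPM added, -2.18 and -2.43 in all filtered cells, -2.23 and -2.48 with the Fgf8-led and Id1-led clusters added and -2.40 and -2.65 with doublets kept. Espn became -2.50 with a minimum of 30000 UMIs, and -3.22 with the fibroblast-like level subtracted. For Baiap2l1 that subtraction gave no value, since its time 2 level was below the fibroblast-like level. The differences in shares of cells (-37.8 and -28.0 percentage points) became -47.2 and -36.0 at 18000 UMIs, -49.0 and -44.8 with all UMIs, -33.0 and -24.9 in all filtered cells and -33.1 and -23.5 with the Fgf8-led and Id1-led clusters.

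The ratios at the time 1 mix of clusters (-0.22 and -1.22) became -0.28 and -1.36 at resolution 1. They became -0.83 and -1.60 with the time 2 sizes of the Rhox9-led, Jam2-led and Nanos3-led clusters. For Espn the ratio was -0.28 with the members among the variable genes and reversed to 0.077 with the fibroblast-like level subtracted.

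X-high over X-low at time 1 (0.54 and 0.92) became 0.43 and 0.85 at a threshold of 1.4, 0.62 and 0.83 in all filtered cells and 0.41 and 0.70 in cells with no gain. At time 2 (0.75 and 1.90) it became 0.47 for Espn at 1.4, 0.70 and 1.64 in all filtered cells, and -0.22 and 1.09 with no gain, where Espn reversed.

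Gain 8 over no gain at time 1 (-0.69 and -1.86) became -0.51 and -1.65 at a threshold of 1.4, -0.41 and -1.49 in X-low cells and -0.86 for Espn in the Rhox9-led cluster. At time 2 (0.29 and -1.61) it became 0.19 and -1.84 at 1.2, 0.58 and -1.17 at 1.4, 0.093 and -0.87 in X-low cells, 0.048 and -0.62 in the 1700097N02Rik-led cluster, and -1.72 for Baiap2l1 with ratios taken over the other autosomes. Gain 1 over no gain at time 2 (-1.06 and -1.56) became -0.69 and -1.01 at 1.2, -0.75 and -1.17 over the other autosomes, -1.25 and -0.85 in X-low cells, -0.58 and -0.90 in the 1700097N02Rik-led cluster, and -1.30 for Baiap2l1 at 1.4. In the 1700097N02Rik-led cluster Espn was at 7.50 CPM with no gain, 7.79 with 8 and 4.69 with 1. All are under the 8.72 CPM of fibroblast-like cells, so no order is read. Baiap2l1 with no gain was at 9.08 CPM there, close to the 8.96 CPM of fibroblast-like cells.

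Depth limits the positions between graded and on/off, which rest on cells with 1 to 3 UMIs, and free RNA, whose level was not measured apart from cells, limits what low levels can show.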
